A study of Homo sapiens with 12 samples.

Results

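The genes described here act in DNA repair and its checkpoints: 47 genes of homologous recombination, the Fanconi anaemia pathway, end resection, mismatch, base excision and nucleotide excision repair, end joining, and the checkpoint kinases. They were chosen by gene symbol, as probe sets named for a listed gene in the array's annotation, and 42 of the 47 had such a probe set among the 17687 genes named. The list was made with earlier results of these data known. BRCA2, RAD54B, FANCA, FANCD2 and RBBP8 were not analysed here. MCF-10A cells, an established non-tumorigenic epithelial line of the human breast, gave RNA from 12 cultures, each measured on its own whole-transcript array. Of these, 4 were the isogenic line with HER2 L755S, a kinase-domain change of the receptor HER2, and 4 the isogenic line with PIK3CA E545K, a change in the catalytic subunit of PI3K. The other 4 were co-cultures of both lines, taken when about 75% of their cells carried the HER2 change and 25% the PIK3CA change. All groups were kept at physiologic EGF levels, had no further treatment, and were harvested between day 7 and day 14. The labels name 1 line per mutation, a line without either mutation was not analysed here, and the harvest day of an array is not given, so mutation, line and harvest cannot be told apart.

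Homologous recombination copies the intact sister chromatid to mend a broken chromosome, and therefore works in cells that are replicating or have just replicated their DNA. BRCA1 and its partners steer resected breaks into this pathway, and the Fanconi proteins unhook cross-linked strands and hand the break to recombination. Non-homologous end joining, by contrast, seals ends through the Ku heterodimer in any phase of the cell cycle. Excision repair removes damaged bases or stretches of one strand. The kinases ATM and ATR sense breaks and stalled forks and signal through CHEK2 and CHEK1. Many recombination, Fanconi and checkpoint genes are transcribed in late G1 and S phase under E2F factors, so their mRNA is known to follow proliferation.

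Values are log2 signals as deposited, on which a difference of 1 is a 2-fold change. Array medians lay between 6.41 and 6.49, and the median of 612 negative control probe sets between 3.39 and 3.79. Correlations between arrays of a group ran from 0.991 to 0.996 across genes, which are not independent replicates. Among 8 epithelial markers (CDH1, EPCAM, KRT5, KRT14, KRT18, KRT8, KRT7, ITGB4) the median level on an array was 12.8 to 13.2, and 0 of them were under the 30th percentile on all arrays of a group. Single markers differed: by at least 1, KRT8 was higher (2.32) in the HER2-mutant line and 4 of the 8 were lower, KRT18 (-2.32) among them. The lowest difference was -2.81 and the median -0.76, against a median of 0.05 over all genes tested. The summed level, which is the log2 of the added linear signals of a list, was 17.7 to 17.8 in the HER2-mutant line, 18.3 in the PIK3CA-mutant line and 17.8 in co-culture. Of 9 fibroblast markers (summed level 11.0 to 11.3, 11.4 to 11.7 and 11.4 to 11.8 in the same order), DCN (3.62) was higher and FAP (-5.95) lower in the HER2-mutant line, whereas LUM, THY1 and POSTN were under the 30th percentile of the array in every group. Of 12 blood and endothelial markers (8.27 to 8.62, 9.09 to 9.41 and 9.15 to 9.40), CD14 (-2.12) and CD68 (-2.15) were lower in the HER2-mutant line, and LYZ, CDH5 and TEK averaged under 4 in all groups. Only 5 of these 12 were tested. Of the 5, 2 were lower and 1 higher, against 29.4% and 30% of all genes tested. Their median difference was 0.13 and the highest 0.54. The part of these markers in the repair results was not tested.

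The first comparison asked how repair transcripts differed between the lines grown alone. Most repair genes had less signal in the HER2-mutant line, and the recombination genes by the largest margin as a group. EXO1, the exonuclease of long-range resection, was 18.7-fold lower and XRCC2 9.29-fold. BRCA1 measured 8.75-fold lower, a lower limit in size because it was close to background in the HER2-mutant line. A small set went the other way, led by the break-sensing kinase gene ATM, which was 1.95-fold higher, and by FANCE, XRCC1 and XPC. Differences were tested with limma and called at a Benjamini-Hochberg adjusted p under 0.05 over all 12774 genes tested. By this rule 29 of the 42 genes were lower and 6 higher in the HER2-mutant line, while 29.4% of all genes tested were lower and 30% higher (59.4% in either direction). Because the list was chosen with earlier results of these data known, such shares, here and below, describe the list and do not test it. By at least 1 on the log2 scale, 16 of the 42 were lower, against 12.2% of all genes, and the largest positive difference was 0.96. The median difference was -0.71 over the 42 genes and 0.05 over all genes tested. All 4 HER2-mutant arrays lay below all 4 PIK3CA-mutant arrays for 25 of the genes, against 26.6% of all genes, and above them for 4, against 26.3%.

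**Figure D1:**
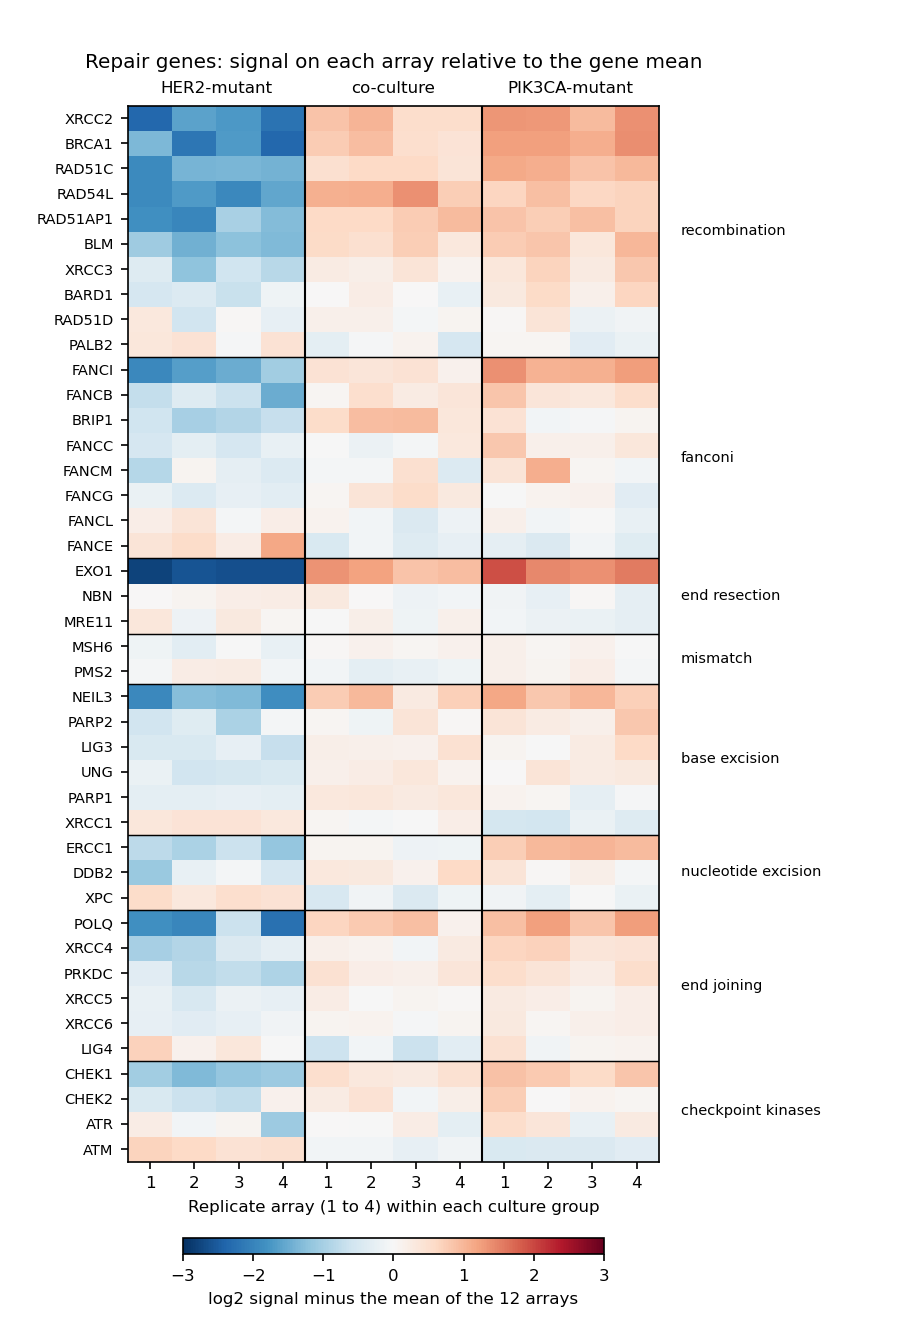
Signal of the 42 repair genes on each of the 12 arrays, as log2 signal minus the mean of that gene over the arrays; blue is below and red above that mean, columns are replicate arrays in the 3 culture groups, and rows are grouped by role. The HER2-mutant arrays are blue for EXO1, XRCC2, BRCA1, FANCI, NEIL3 and POLQ, where the co-culture arrays resemble those of the PIK3CA-mutant line, and ATM, XRCC1, XPC and FANCE run the other way.

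Proliferation genes moved with these differences between the lines. In a list of 20 replication and mitosis genes all 20 were lower in the HER2-mutant line, against 29.4% of all genes tested. Their median difference was -3.47. PCNA, the sliding clamp of replication, differed by -2.08, and MKI67, the gene of the Ki-67 antigen, by -5.66. The summed level of the list, as log2 of the added linear signals, was 13.0 to 13.3 on the HER2-mutant arrays, 15.7 to 15.8 on the PIK3CA-mutant arrays and 15.4 to 15.5 on the co-culture arrays. The part of proliferation in the repair results was not tested. In bulk RNA such as this, fewer expressing cells and less RNA per cell cannot be told apart.

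**Figure D2:**
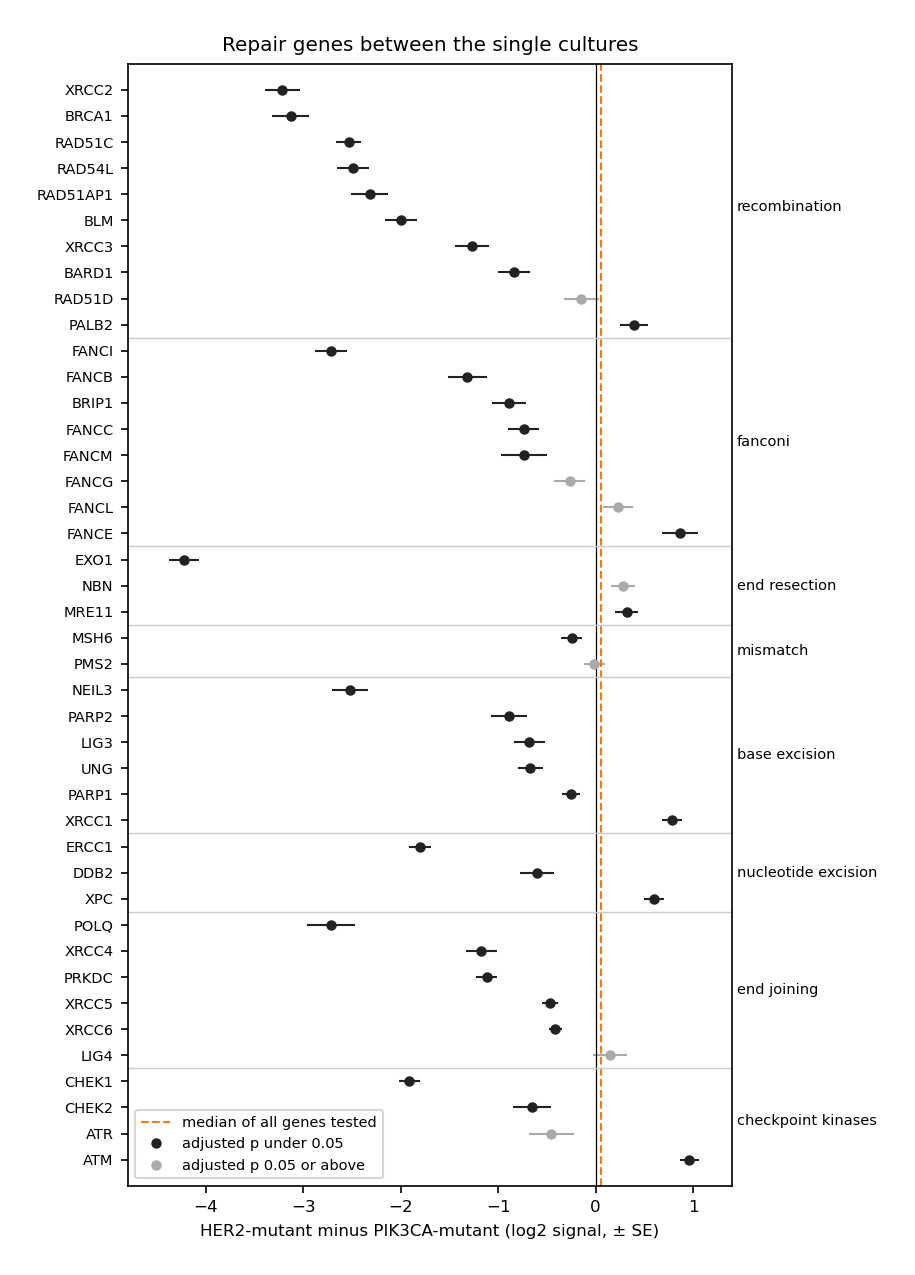
Difference between the single cultures for each of the 42 repair genes, as HER2-mutant minus PIK3CA-mutant log2 signal with its SE from limma, grouped by role; black points had an adjusted p under 0.05, grey points did not, and the dashed line is the median of all genes tested (0.05). Recombination genes reach to -3.22 and EXO1 to -4.23, while ATM is the highest at 0.96.

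Among the recombination genes 8 of 10 were lower and 1 higher, against 29.4% and 30% of all genes tested. Their median difference was -2.16. XRCC2, which acts in strand exchange, read 4.93, 5.67, 5.55 and 5.08 on the HER2-mutant arrays and 8.62, 8.59, 8.23 and 8.66 on the PIK3CA-mutant arrays. The co-culture arrays, at 8.15, 8.31, 7.80 and 7.82, stood near the PIK3CA-mutant ones and well apart from the HER2-mutant ones. XRCC2 differed between the lines by -3.22 ± 0.18 (SE, adjusted p 3.09e-13). BRCA1, the scaffold that steers breaks into recombination, read 4.96, 4.15, 4.61 and 3.97 in the HER2-mutant line against 7.54, 7.55, 7.40 and 7.72 in the PIK3CA-mutant line and 7.07, 7.23, 6.83 and 6.73 in co-culture. The groups did not overlap, with a difference of -3.13 ± 0.19 between the lines (SE, adjusted p 1.69e-12). BRCA1 was above the 30th percentile of the array on only 2 of the 4 HER2-mutant arrays, so its difference is a lower limit in size.

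RAD51C, which acts in strand exchange too, gave 7.98, 8.51, 8.53 and 8.49 in the HER2-mutant line, 11.03, 11.00, 10.76 and 10.88 in the PIK3CA-mutant line, and 10.39, 10.49, 10.51 and 10.28 in co-culture. The 3 groups were fully separated, and the lines differed by -2.54 ± 0.13 (SE, adjusted p 3.23e-14). RAD54L, a motor protein of strand invasion, gave 4.46, 4.67, 4.45 and 4.82, then 7.03, 7.28, 7.01 and 7.04, and in co-culture 7.44, 7.47, 7.74 and 7.13. It differed between the lines by -2.49 ± 0.16 (SE, adjusted p 4.12e-12), and its co-culture arrays overlapped with those of the PIK3CA-mutant line. RAD51AP1, which aids strand invasion, differed by -2.32, BLM, the helicase that dissolves recombination intermediates, by -2.0, and XRCC3 by -1.27. RAD51AP1 was above the 30th percentile on 2 of the 4 HER2-mutant arrays. RAD54L was above it on all 4, but by little on replicates 1 and 3, where the percentile was 4.45 and 4.39.

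Partners of BRCA1 had smaller differences. BARD1, the obligate ring-finger partner of BRCA1, differed by -0.84 ± 0.17 (SE, adjusted p 0.000139). PALB2, which bridges BRCA1 and BRCA2, went the other way by 0.40 ± 0.14 (SE, adjusted p 0.019). That call was lost without HER2-mutant replicate 2 or 4 or PIK3CA-mutant replicate 3 or 4, with adjusted p up to 0.0769. RAD51D did not pass (-0.15, adjusted p 0.505).

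Of 8 Fanconi genes 5 were lower (62.5%) and 1 higher (12.5%), against 29.4% and 30% of all genes tested. Their median difference was -0.74. FANCI, a subunit of the clamp that is ubiquitinated at a cross-link, read 6.33, 6.59, 6.76 and 7.21 on the HER2-mutant arrays, 9.63, 9.30, 9.33 and 9.51 on the PIK3CA-mutant arrays and 8.69, 8.63, 8.70 and 8.39 in co-culture. These groups were fully separated, by -2.72 ± 0.16 between the lines (SE, adjusted p 1.03e-12). Genes of the core complex, which carries the ubiquitin ligase for that clamp, were divided. FANCB differed by -1.32 and FANCC by -0.74, FANCG (-0.27, adjusted p 0.154) and the ligase gene FANCL (0.23, adjusted p 0.221) did not pass, and FANCE was higher. FANCE read 6.13, 6.30, 5.98 and 6.90 in the HER2-mutant line, 5.47, 5.31, 5.67 and 5.39 in the PIK3CA-mutant line and 5.29, 5.67, 5.35 and 5.50 in co-culture. Only the HER2-mutant arrays stood apart, by 0.86 ± 0.18 from the PIK3CA-mutant line (SE, adjusted p 0.000269). That difference did not pass a tested margin of 0.5 (adjusted p 0.0977). BRIP1, the helicase partner of BRCA1, differed by -0.89, and FANCM, the translocase that recruits the core complex to stalled forks, by -0.73. FANCB was above the 30th percentile on 1 and FANCM on 2 of the 4 HER2-mutant arrays, and the FANCM call was lost without HER2-mutant replicate 1 (adjusted p 0.0502) or PIK3CA-mutant replicate 2 (0.0664).

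End resection split by its steps. EXO1, which extends resection and also cuts in mismatch repair, read 5.22, 5.42, 5.37 and 5.37 on the HER2-mutant arrays against 9.93, 9.44, 9.36 and 9.55 on the PIK3CA-mutant arrays and 9.34, 9.20, 8.86 and 8.92 in co-culture. Its difference of -4.23 ± 0.15 (SE, adjusted p 8.4e-17) was the largest measured among the 42 genes. The subunits that begin resection did not share it. MRE11, the nuclease, was higher by 0.32 ± 0.12 (SE, adjusted p 0.0262), and NBN, which tethers ATM to the break, did not pass (0.28, adjusted p 0.0558). The NBN difference passed without HER2-mutant replicate 1 (adjusted p 0.0413), PIK3CA-mutant replicate 3 (0.0348) or co-culture replicate 1 (0.0427). The MRE11 call was lost without HER2-mutant replicate 1 or 3 or PIK3CA-mutant replicate 3 or 4 (adjusted p up to 0.0917).

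In end joining 5 of 6 genes were lower, against 29.4% of all genes tested, and by unequal amounts. POLQ, the polymerase of the mutagenic theta-mediated pathway, read 4.21, 4.09, 5.39 and 3.81 in the HER2-mutant line, 6.94, 7.26, 6.87 and 7.28 in the PIK3CA-mutant line and 6.68, 6.82, 6.94 and 6.17 in co-culture. It differed by -2.72 ± 0.25 (SE, adjusted p 2.17e-09) and was above the 30th percentile on 1 of the 4 HER2-mutant arrays. PRKDC, the catalytic subunit of DNA-PK, read 12.95, 12.45, 12.55 and 12.37 against 13.82, 13.67, 13.51 and 13.82, and 13.75, 13.50, 13.44 and 13.66 in co-culture. PRKDC thus differed by -1.12 ± 0.11 (SE, adjusted p 5.06e-09), and its co-culture arrays overlapped with those of the PIK3CA-mutant line. XRCC4, the scaffold of the ligation step, differed by -1.18. The Ku genes XRCC5 and XRCC6 differed by -0.47 and -0.41, both without overlap of the arrays, and neither passed a tested margin of 0.5. LIG4, the ligase itself, did not pass (0.15, adjusted p 0.499).

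Base excision genes were lower in 5 of 6, against 29.4% of all genes tested. NEIL3, a glycosylase that also unhooks cross-links at replication forks, read 5.33, 5.98, 5.94 and 5.41 in the HER2-mutant line, 8.43, 8.06, 8.26 and 7.99 in the PIK3CA-mutant line and 8.03, 8.23, 7.55 and 7.98 in co-culture. The HER2-mutant arrays were well below both other groups, and the lines differed by -2.52 ± 0.18 (SE, adjusted p 3.11e-11). PARP2 differed by -0.89, the ligase gene LIG3 by -0.68 and UNG, which removes uracil, by -0.67. XRCC1, the scaffold that gathers the single-strand break enzymes, was higher instead, with 10.72, 10.78, 10.78 and 10.70 in the HER2-mutant line, 9.86, 9.82, 10.17 and 10.00 in the PIK3CA-mutant line and 10.43, 10.33, 10.37 and 10.59 in co-culture. XRCC1 differed by 0.78 ± 0.10 (SE, adjusted p 8.12e-07), and its partner LIG3 went in the opposite direction. PARP1, the sensor of strand breaks, differed by only -0.25 ± 0.09 (SE, adjusted p 0.0218), a call lost without PIK3CA-mutant replicate 1 (0.0805) or 2 (0.0652) and with quantile normalization (0.12).

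Nucleotide excision genes split within damage recognition. XPC, which finds distorted helix, read 11.71, 11.49, 11.67 and 11.60 in the HER2-mutant line, 11.06, 10.87, 11.16 and 10.98 in the PIK3CA-mutant line and 10.69, 11.07, 10.73 and 11.04 in co-culture. XPC differed by 0.60 ± 0.11 (SE, adjusted p 3.52e-05), and did not pass a tested margin of 0.5 (adjusted p 0.479). DDB2, which recognises ultraviolet damage for XPC, read 8.04, 8.93, 9.08 and 8.64, then 9.53, 9.17, 9.32 and 9.08, and 9.46, 9.44, 9.27 and 9.75 in co-culture. The lines differed by -0.61 ± 0.18 (SE, adjusted p 0.00496), the groups meeting at 9.08 without overlap. Without HER2-mutant replicate 1 the DDB2 difference was -0.39 (adjusted p 0.0272). XPC and DDB2 are both known as p53 targets. ERCC1, the partner of the nuclease that cuts on the 5′ side, read 10.08, 9.92, 10.23 and 9.70 in the HER2-mutant line, 11.60, 11.84, 11.90 and 11.81 in the PIK3CA-mutant line and 10.96, 10.95, 10.72 and 10.74 in co-culture. The lines differed by -1.81 ± 0.11 (SE, adjusted p 2.99e-12), and the co-culture arrays lay between them, clear of both.

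Mismatch repair genes were nearly level. MSH6, which recognises mispaired bases, read 9.70, 9.53, 9.83 and 9.62 in the HER2-mutant line, 9.99, 9.90, 9.96 and 9.82 in the PIK3CA-mutant line and 9.88, 9.97, 9.90 and 9.96 in co-culture. Its difference of -0.25 ± 0.10 (SE, adjusted p 0.047) stood at the threshold, and the call was lost in 10 of 12 fits that each left out 1 array, with adjusted p up to 0.131. PMS2, the endonuclease subunit, did not pass (-0.01, adjusted p 0.929). PMS2 and CHEK2 have close pseudogene copies, so which locus their probe sets read is uncertain.

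Of the kinases, CHEK1 and ATM moved in opposite directions. CHEK1, the effector kinase of ATR at stalled forks, read 9.13, 8.84, 9.00 and 9.08 in the HER2-mutant line, 11.05, 10.94, 10.73 and 10.99 in the PIK3CA-mutant line and 10.67, 10.48, 10.43 and 10.61 in co-culture. All 3 groups were separate, and the lines differed by -1.91 ± 0.11 (SE, adjusted p 4.47e-13). ATM read 10.97, 10.91, 10.75 and 10.81 in the HER2-mutant line, 9.85, 9.89, 9.88 and 9.98 in the PIK3CA-mutant line and 10.24, 10.24, 10.07 and 10.21 in co-culture. ATM differed by 0.96 ± 0.10 (SE, adjusted p 1.24e-08), again with 3 separate groups. CHEK2 differed by -0.65, with overlapping arrays. ATR read 6.33, 6.04, 6.20 and 5.02 in the HER2-mutant line, 6.66, 6.49, 5.89 and 6.39 in the PIK3CA-mutant line and 6.14, 6.11, 6.35 and 5.83 in co-culture. These values overlapped and the difference did not pass (-0.46, adjusted p 0.094). It passed without HER2-mutant replicate 1 (adjusted p 0.0357) or PIK3CA-mutant replicate 3 (0.035), and shrank to -0.16 (0.471) without HER2-mutant replicate 4.

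**Figure D3:**
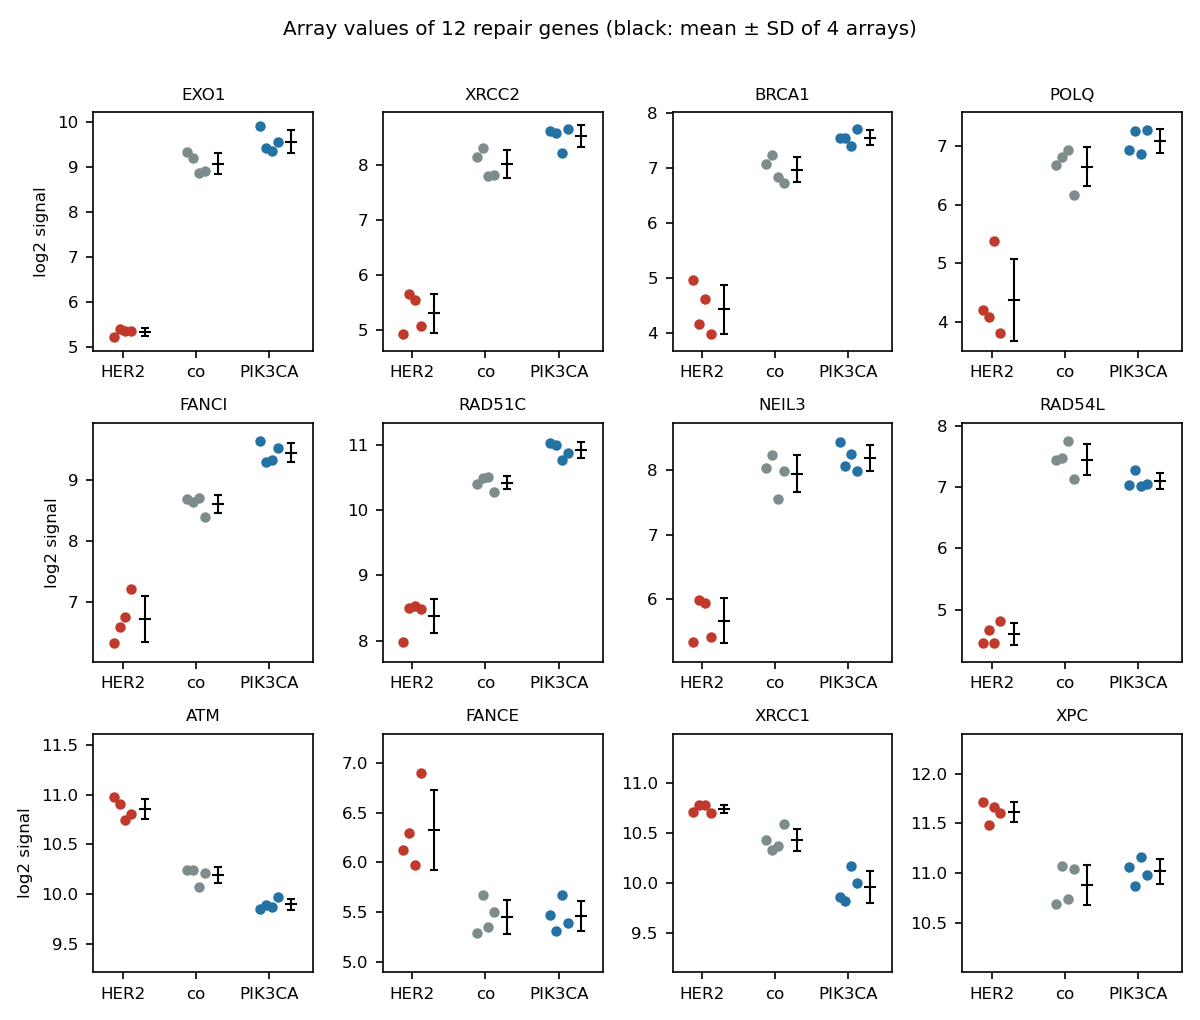
Log2 signal of 12 repair genes on every array, with the mean and SD of the 4 arrays of each group in black; HER2 is the HER2-mutant line, co the co-culture and PIK3CA the PIK3CA-mutant line, and each panel has its own axis. In the upper 8 panels the HER2-mutant arrays lie below both other groups, and in the lower 4 (ATM, FANCE, XRCC1, XPC) above both.

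Promoters were read for sequence words of cell cycle transcription, because many of these genes moved together. RefSeq promoters (GRCh38.p14, 250 bases before to 50 after the annotated start) were found for 38 of the 42 genes. No promoter was read for FANCI, NBN, PRKDC and XRCC5. The E2F words TTTGGCGC, TTTCCCGC, TTTGCCGC and TTTCGCGC, on either strand, were in a promoter of 8 of the 38 genes (21.1%), against 6.26% of 10471 genes tested and 3.31% of all 35116 promoters of 300 bases in the table. The 8 genes were EXO1, XRCC2, FANCC, MSH6, PMS2, UNG, XPC and XRCC6. The words TTTGAA and TTCGAA, spelled as in the cell cycle homology region, were in 10 of 38 (26.3%, against 16.3% of genes tested and 16.4% of all promoters). CCAAT was in 22 of 38 (57.9%, against 43.0% and 34.6%). Of the genes lower by at least 1, 2 of 14 held an E2F word (14.3%), and of the other repair genes 6 of 24 (25.0%). A match is a description of letters, not of a binding site.

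Stretches from 4 promoters are shown, with the E2F word in capitals, because they hold the same kind of word in genes that behaved differently: EXO1 and XRCC2 with large differences, PMS2 with almost none and XPC higher in the HER2-mutant line. They are written 5′ to 3′ along the gene's strand. EXO1 lies on the plus strand at chr1:241848114-241848233, XRCC2 on the minus strand at chr7:152676112-152676231, PMS2 on the minus strand at chr7:6009082-6009201 and XPC on the minus strand at chr3:14178732-14178851. The word begins at base 5 after the start in EXO1 and at base 22 in XRCC2, counting the start as 1, and at base -43 in PMS2 and -241 in XPC. In XRCC2 it is on the opposite strand.
EXO1: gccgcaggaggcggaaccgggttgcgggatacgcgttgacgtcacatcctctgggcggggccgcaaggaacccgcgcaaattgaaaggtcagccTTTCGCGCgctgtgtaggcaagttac
XRCC2: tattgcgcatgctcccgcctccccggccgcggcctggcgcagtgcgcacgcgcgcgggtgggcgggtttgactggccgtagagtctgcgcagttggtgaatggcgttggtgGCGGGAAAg
PMS2: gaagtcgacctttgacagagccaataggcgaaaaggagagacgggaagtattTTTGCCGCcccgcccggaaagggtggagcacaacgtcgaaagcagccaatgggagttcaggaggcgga
XPC: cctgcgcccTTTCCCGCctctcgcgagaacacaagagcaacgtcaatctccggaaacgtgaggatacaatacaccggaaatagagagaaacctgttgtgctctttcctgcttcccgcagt

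Other genes of the same pathways were less one-sided. A wider list of 111 further repair genes had 102 with a probe set, of which 101 were tested. Of these 101, 35 were lower (34.7%, near the 29.4% of all genes tested) and 22 higher (21.8%, against 30%) in the HER2-mutant line. Their median was -0.12, close to the 0.05 of all genes tested. The large differences leaned to one side: by at least 1, 18 were lower and 3 higher, against 12.2% and 9.00% of all genes tested. The largest negative differences were those of CLSPN (-4.74), the adaptor by which ATR activates CHEK1, and FIGNL1 (-4.0), an ATPase of recombination. MND1 (-3.32), a cofactor of strand exchange, and UBE2T (-3.23), the ubiquitin-conjugating enzyme of the Fanconi pathway, came next. The largest positive ones were those of NEIL1 (2.20), a glycosylase, POLI (1.78), a translesion polymerase, XPA (1.52), which verifies damage in nucleotide excision, and DDB1 (0.99), the binding partner of DDB2. Against the HER2-mutant line, 29 of the 101 were higher (28.7%, against 24.9% of all genes tested) and 19 lower (18.8%, against 26.0%) in co-culture. By at least 1, 14 were higher and 3 lower there, against 8.59% and 5.39%. Against the PIK3CA-mutant line, 8 were higher (7.92%, against 11.1%) and 13 lower (12.9%, against 14.6%), shares near the background.

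**Figure D4:**
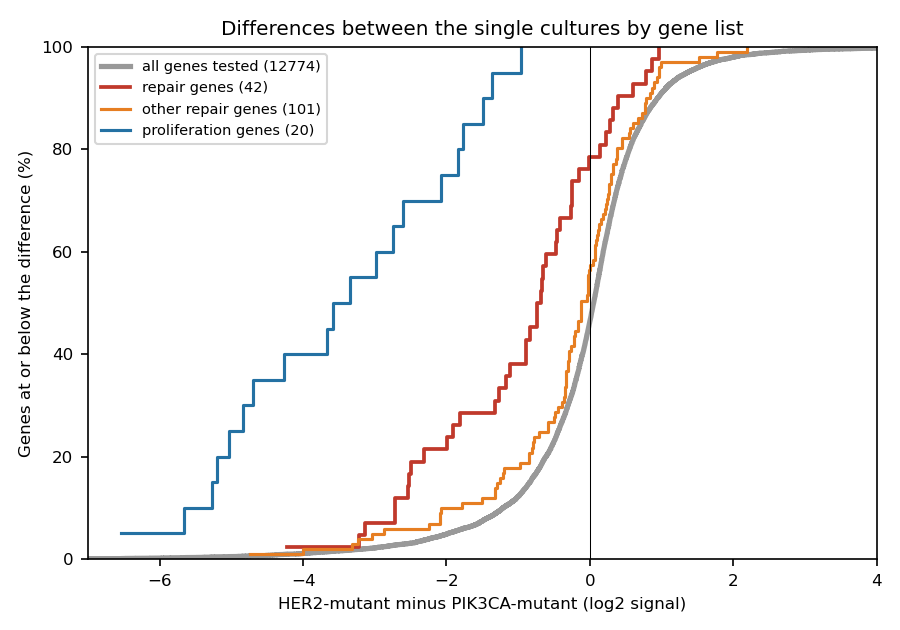
Cumulative share of genes (percent) at or below each difference between the single cultures (HER2-mutant minus PIK3CA-mutant, log2 signal) for all 12774 genes tested, the 42 repair genes, 101 other repair genes and 20 proliferation genes. By their medians, the repair genes lie to the left of all genes (-0.71 against 0.05), the other repair genes close to all genes (-0.12) and the proliferation genes farthest left (-3.47).

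The co-culture was next set against the HER2-mutant line, which made up most of its cells. This contrast shares the HER2-mutant arrays with the one above. Repair genes were mostly higher in the co-culture, with the recombination genes again in front. By limma, 29 of the 42 were higher and 7 lower, against 24.9% and 26.0% of all genes tested (50.9% in either direction), and 14 were higher by at least 1, against 8.59%. The median difference was 0.63, against -0.05 over all genes tested. By role, 8 of 10 recombination, 5 of 8 Fanconi, 5 of 6 base excision and 5 of 6 end joining genes were higher. EXO1 was higher by 3.74 ± 0.15 (SE, adjusted p 1.44e-15), RAD54L by 2.84, XRCC2 by 2.71, BRCA1 by 2.54 and NEIL3 by 2.28. POLQ was higher by 2.28, RAD51AP1 by 2.25, RAD51C by 2.04, FANCI by 1.88, BLM by 1.79 and CHEK1 by 1.53. Lower in the co-culture were FANCE (-0.87), XPC (-0.73), LIG4 (-0.70), ATM (-0.67), PALB2 (-0.46), XRCC1 (-0.31) and PMS2 (-0.26). The 20 proliferation genes were all higher, with a median of 2.78. In this contrast the calls of BARD1, FANCC, MSH6, PARP2 and PMS2 were each lost without at least 1 array, and the other 31 of the 36 held in all 12 such fits. PARP2 was lost without HER2-mutant replicate 3 (adjusted p 0.0585) or co-culture replicate 3 (0.0511), and the other 4 genes without 6 or more arrays, with adjusted p up to 0.105 for BARD1, 0.15 for FANCC, 0.126 for MSH6 and 0.143 for PMS2.

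Against the PIK3CA-mutant line, repair genes differed in co-culture about as often as all genes tested. By limma, 8 of the 42 were lower (19.0%) and 4 higher (9.52%), against 14.6% and 11.1% of all genes tested (25.6% in either direction), shares near that background. The median difference was -0.13, against -0.02 over all genes tested. ERCC1 differed by -0.95 ± 0.11 (SE, adjusted p 1.52e-06) and FANCI by -0.84 ± 0.16 (SE, adjusted p 0.000416). In both, every co-culture array lay below every PIK3CA-mutant array. BRCA1 differed by -0.59, LIG4 by -0.55, XRCC2 by -0.50, RAD51C by -0.50, EXO1 by -0.49 and CHEK1 by -0.38. Higher in the co-culture were BRIP1 by 0.60 ± 0.17 (SE, adjusted p 0.013), XRCC1 by 0.47, PARP1 by 0.35 and ATM by 0.29. XRCC1 and ATM, both brighter in the HER2-mutant line, thus lay between the lines with no overlap. Of the 20 proliferation genes 10 were lower and 2 higher in co-culture, with a median of -0.36. MKI67 differed by -0.47 and PCNA did not pass (-0.14, adjusted p 0.446). Only ERCC1, FANCI, RAD51C, CHEK1, XRCC1 and PARP1 passed in all 12 fits that left out 1 array. The calls of BRCA1, LIG4, XRCC2, EXO1, BRIP1 and ATM were lost without at least 1 array, with adjusted p up to 0.0841, 0.101, 0.131, 0.0976, 0.0567 and 0.0744. ATM was also lost with median centring (0.0571) and XRCC2 with no filter on dim genes (0.0556). The count of lower genes fell to 4 without PIK3CA-mutant replicate 1 or co-culture replicate 3 and to 5 without co-culture replicate 4, and that of higher genes to 2 without co-culture replicate 2. The shares of all genes in these fits are not given here. With a difference of over 0.5 (log2) as the tested alternative, 1 gene was lower and 0 were higher, without a share of all genes to set beside them. By at least 1 none of the 42 was higher or lower, against 1.48% and 1.95% of all genes tested.

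A further comparison asked how the co-culture stood to a mix in the proportion of its cells. The expected blend was made on the linear scale from signal of the HER2-mutant line (75%) and the PIK3CA-mutant line (25%), and the blend carries arrays of both comparisons above. It weights signal by the share of cells, and the share of RNA from each line is not given. Unequal RNA per cell therefore cannot be told apart from expression beyond the mix. Repair genes that were low in the HER2-mutant line mostly exceeded the blend. In limma, 23 of the 42 were above the blend and 6 below it, against 18.5% and 22.3% of all genes tested (40.8% in either direction). By at least 1, 7 were above it and 0 below it, against 2.80% and 3.23%. The median difference was 0.39, against -0.05 over all genes tested. By role, 7 of 10 recombination, 4 of 8 Fanconi, 4 of 6 base excision and 5 of 6 end joining genes exceeded the blend. RAD54L exceeded the blend by 1.74 ± 0.14 (SE, adjusted p 1.4e-09), EXO1 by 1.30 ± 0.14 (1.43e-07), RAD51AP1 by 1.25 and BRIP1 by 1.21. For RAD51AP1 the arrays read 3.91, 3.79, 4.78 and 4.45 in the HER2-mutant line, 6.61, 6.50, 6.67 and 6.42 in the PIK3CA-mutant line and 6.34, 6.35, 6.53 and 6.70 in co-culture. The co-culture arrays of RAD51AP1 thus overlapped with those of the PIK3CA-mutant line and not with those of the HER2-mutant line. NEIL3, XRCC2 and POLQ exceeded the blend by 1.15, 1.09 and 1.02, and BRCA1 by 0.99. Below the blend were FANCE (-0.70), LIG4 (-0.66), XPC (-0.61), ATM (-0.48), PALB2 (-0.38) and PMS2 (-0.26). ERCC1 (0.16, adjusted p 0.218) and XRCC1 (-0.15, adjusted p 0.225) did not differ from the blend by the test, with ERCC1 well below and XRCC1 above the PIK3CA-mutant level. Against a blend of 85%, ERCC1 was above it by 0.40 (adjusted p 0.00212). The 20 proliferation genes were all above the blend, with a median of 1.13. With the HER2-mutant share set to 65% or 85% in place of 75%, 18 and 25 genes were above, and the share of all genes at these blends is not given here. The calls of PALB2, PMS2, XRCC4, XRCC5 and XRCC6 against the blend were each lost without at least 1 array, with adjusted p up to 0.121, 0.106, 0.132, 0.0657 and 0.064. Of single arrays, co-culture replicate 1 decided the call of XRCC5 and co-culture replicate 2 that of XRCC6. Both were also lost with quantile normalization (adjusted p 0.0773 and 0.168), without a trend of the spread (0.0564 and 0.0969) and with a blend of 65% (0.0555 and 0.0767), and XRCC6 with median centring (0.0551). With a blend of 65% the calls of FANCI (0.32, adjusted p 0.103), XRCC3 (0.40, 0.0501) and XRCC4 (0.23, 0.224) were lost too, and BRCA1 exceeded it by 0.65.

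**Figure D5:**
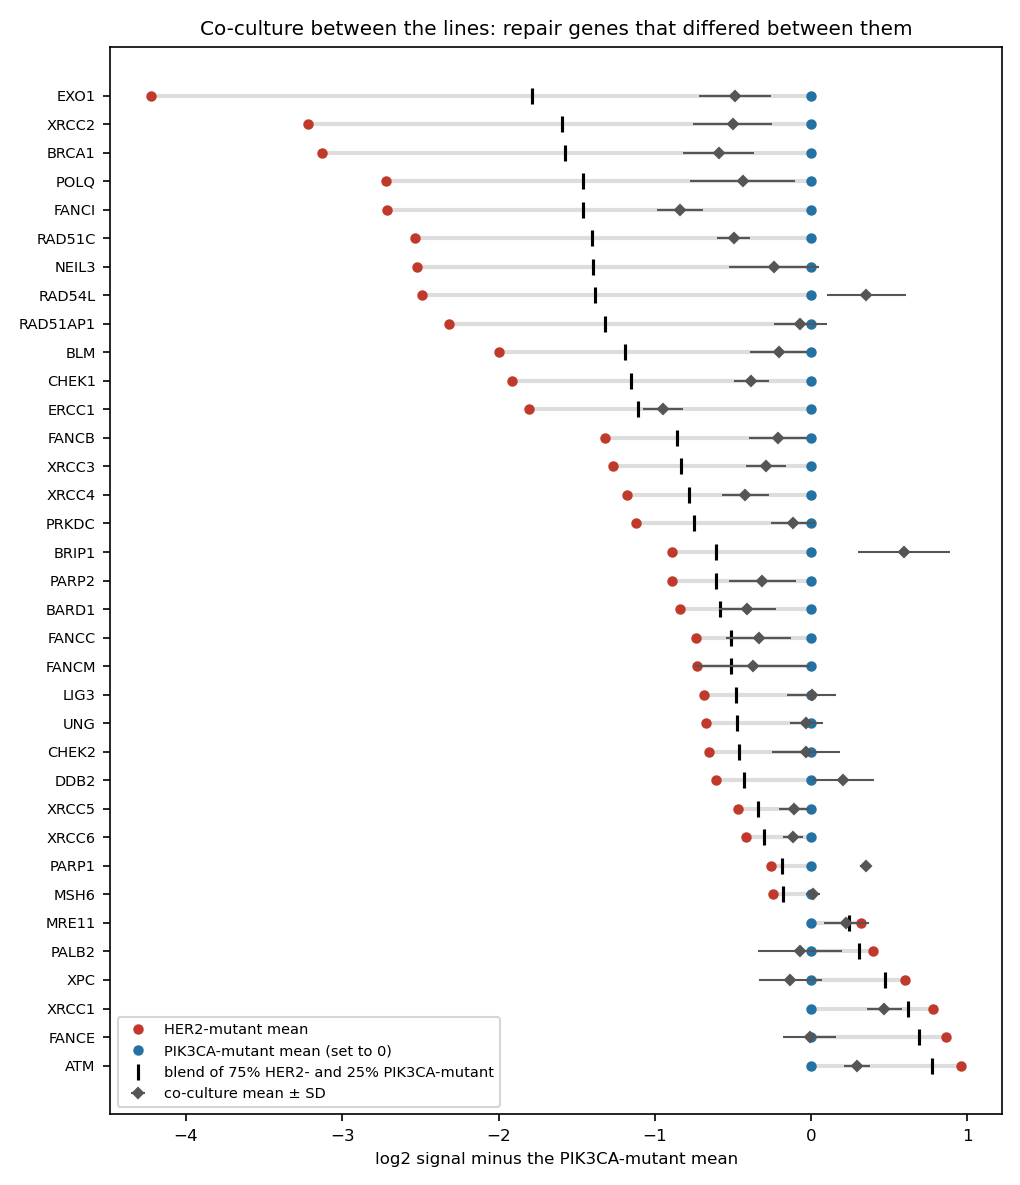
Mean log2 signal of the 35 repair genes that differed between the lines, relative to the PIK3CA-mutant mean (blue, at 0), for the HER2-mutant line (red), the co-culture (grey, with SD of 4 arrays) and the blend of 75% HER2- and 25% PIK3CA-mutant signal (black tick). The co-culture of EXO1, XRCC2, RAD54L and RAD51AP1 sits far to the right of the tick, ERCC1 close to it, and the means of BRIP1, PARP1, RAD54L and DDB2 lie to the right of both lines. Those of MSH6 and LIG3 exceed the PIK3CA-mutant mean by only 0.01 and 0.003.

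A few genes lay outside both lines in the co-culture. BRIP1 and PARP1 were above both by the adjusted p of each contrast, as were 2.07% of all genes tested, and LIG4 was below both, as were 2.04%. BRIP1 read 6.64, 7.01, 7.05 and 6.44 in co-culture against 5.48, 5.10, 5.22 and 5.40 in the HER2-mutant line and 6.52, 6.01, 6.06 and 6.16 in the PIK3CA-mutant line. The lowest co-culture array was below the highest PIK3CA-mutant one, and the call against that line was lost without co-culture replicate 2 (adjusted p 0.0514) or 3 (0.0567). PARP1 was tighter, with 11.62, 11.64, 11.58 and 11.65 in co-culture, 11.01, 11.01, 11.05 and 11.03 in the HER2-mutant line and 11.42, 11.37, 11.05 and 11.27 in the PIK3CA-mutant line. All 4 co-culture arrays of PARP1 were above the other 8, by 0.60 ± 0.09 over the HER2-mutant line (SE, adjusted p 8.54e-06) and 0.35 ± 0.09 over the PIK3CA-mutant line (SE, adjusted p 0.00675). LIG4 read 6.72, 7.25, 6.68 and 7.02 in co-culture, 8.02, 7.45, 7.67 and 7.32 in the HER2-mutant line and 7.80, 7.22, 7.41 and 7.45 in the PIK3CA-mutant line. It overlapped with the PIK3CA-mutant line on 1 array, and its call there was lost without PIK3CA-mutant replicate 1 (adjusted p 0.101) or co-culture replicate 1 (0.0727) or 3 (0.0862).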

How the data were processed

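The authors deposited log2 signals per probe set, 1 column per array. The submitters' processing notes name the Transcriptome Analysis Console, and its version, its normalization and genome build are not given in the sources used here. The values were used as they stand. The labels give 4 cultures per group without saying how they were kept apart, so p-values measure the spread between these arrays, whose number limits the precision. Of 24351 probe sets, 17709 were named for 1 gene. For 20 genes with several, the brightest was kept. A gene was tested if above the 30th percentile on at least 4 arrays, which left 12774 genes, all 42 repair genes among them. In limma 3.58.1 (R 4.3.3), 1 model with 3 groups was fitted to all 12 arrays, with a trend of the spread, two-sided contrasts and Benjamini-Hochberg adjustment over all genes. The blend was tested with delta-method weights. The fit was run on simulated data in which some genes were changed in 1 group. In the simulation for the blend the lines did not differ, so it does not cover genes that differ between them. The genes and lists were chosen with earlier results of these data known. Array values are given for genes with the largest differences and for a set named by role.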

Additional observations from a re-analysis of the deposited data

Results flagged for a closer look

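For the 42 repair genes, each group of 4 arrays was examined for an array far from the others, by its gap to the nearest array divided by the range of the group (critical value 0.829). Of 126 groups 4 exceeded it, fewer than the 5% that the rule gives by chance. RAD51C was lowest on HER2-mutant replicate 1, at 7.98 with the next at 8.49 (ratio 0.931). RAD54L was highest on PIK3CA-mutant replicate 2, at 7.28 with the next at 7.04 (ratio 0.867). CHEK2 was highest on PIK3CA-mutant replicate 1, at 7.22 with the next at 6.60 (ratio 0.855), and without that array its co-culture difference from the PIK3CA-mutant line changed sign, from -0.03 to 0.13. XRCC2 was lowest on PIK3CA-mutant replicate 3, at 8.23 with the next at 8.59 (ratio 0.834).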

How the results depend on the processing

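Counts of repair genes and of other repair genes past the threshold stayed within 1.5 times under other filters, normalizations, array weights, estimates of the spread, pairwise fits, blends of 65% and 85% and the mean of probe sets. Against a tested margin of 0.5 they were 2 higher and 16 lower between the lines, 16 and 0 for the co-culture against the HER2-mutant line, and 0 and 1 against the PIK3CA-mutant line. For the other repair genes they were 9 and 20, 14 and 5, and 0 and 1. The share of all genes at this margin is not given here, so these counts cannot be set against a background. Between the lines the margin was not passed by the called genes FANCE, XPC, XRCC5, XRCC6, BARD1, BRIP1, FANCC, FANCM and PARP2. The same held for LIG3, UNG, DDB2, CHEK2, MRE11, MSH6, PALB2 and PARP1. Leaving out each array in turn gave 2 to 4 higher and 4 to 9 lower repair genes in co-culture against the PIK3CA-mutant line. Signs turned only for differences that did not pass: PMS2 between the lines (0.0677 with quantile normalization, 0.0161 with array weights), LIG3 (-0.0252 with median centring, -0.0279 with array weights) and MSH6 (-0.0182 with median centring) against the PIK3CA-mutant line, and ERCC1 (-0.0476) and MRE11 (0.0125) against a blend of 65%. With 1 array left out, signs also turned between the lines for PMS2 (-0.0664 to 0.0386) and RAD51D (-0.288 to 0.00136), and against the HER2-mutant line for ATR (-0.0847 to 0.352). Against the PIK3CA-mutant line they turned for CHEK2 (-0.116 to 0.133), FANCE (-0.0814 to 0.0617), LIG3 (-0.0770 to 0.124), MSH6 (-0.0221 to 0.0333), PALB2 (-0.165 to 0.0376), RAD51D (-0.0120 to 0.175) and UNG (-0.102 to 0.0185). Against the blend they turned for ATR (-0.127 to 0.177), FANCM (-0.0261 to 0.269), MRE11 (-0.0946 to 0.0410) and NBN (-0.145 to 0.00341). The cause was not tested. Besides the calls named in the report, other settings ended those of MSH6 between the lines (adjusted p up to 0.168) and, against the HER2-mutant line, of MSH6 (up to 0.0731), FANCC (up to 0.0683) and PMS2 (up to 0.0685), and against the blend of PALB2 (0.0753, array weights) and XRCC4 (0.0579, median centring). They gained calls for NBN between the lines (0.0225, quantile normalization), for PMS2 (0.0266), XRCC4 (0.0204), RAD54L (0.0424) and FANCG (0.045) against the PIK3CA-mutant line and for CHEK2 (0.0305) against the blend, the last 5 with array weights. Arrays with the same replicate number did not deviate together (correlations -0.04 to 0.06). With 4 arrays per group this cannot show whether equal numbers were cultured together. With the replicate number as a block the calls of MSH6 (adjusted p 0.0538 between the lines, 0.0523 against the HER2-mutant line), PMS2 (0.0515 against the HER2-mutant line) and XRCC4 (0.0529 against the blend) were lost. The counts, higher and lower, were then 6 and 28 between the lines, 28 and 6 against the HER2-mutant line, 4 and 8 against the PIK3CA-mutant line and 22 and 6 against the blend. The shares of all genes with this block, under the other settings and with 1 array left out are not given here. Signal close to background limits BRCA1, RAD51AP1, RAD54L, POLQ, FANCB and FANCM in the HER2-mutant line.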
